A study of Mus musculus with 36 samples.

Results

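The nuclear-encoded respiratory chain genes were described across mouse embryonic stem cells and neural precursor cells with edited histone methyltransferases. They were chosen by symbol alone: every gene beginning Nduf, Uqcr or Atp5, the genes Sdha, Sdhb, Sdhc and Sdhd, and Cox4 to Cox8 with their isoforms, leaving out pseudogene symbols. The rule took 93 of 51734 gene symbols, and 91 passed the filter on low counts. Sorted by complex, they were 36 subunits of complex I, 9 assembly factors of complex I, 4 genes of complex II, 8 of complex III, 20 of complex IV and 16 of complex V. Ndufa4 and Ndufa4l2 were counted with complex IV, and Atp5sl, also named Dmac2, with complex I assembly.

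The libraries came from E14, a mouse embryonic stem cell (ESC) line, and from neural precursor cells (NPC) derived from it with retinoic acid. The 3 genotypes were measured at both stages with 3 libraries each: wild type (WT), a line with catalytically dead MLL3 and MLL4 (dCD), and an MLL2dTAG line. The dTAG is a degron fused to MLL2, and dTAG-13 is a small molecule that marks proteins with this tag for destruction by the cell. All 18 libraries, WT included, are labelled as treated with dTAG-13, so no comparison isolates the compound. For NPC it was given at 2 µM from day 1 to the harvest on day 4, and for ESC the duration is not given. Each genotype is a line of its own, so the edit and the line cannot be told apart. The labels do not say that replicates were separate cultures, and p-values then measure only the spread between these libraries. Both edits act on the protein, and gene counts do not test them.

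The respiratory chain sits in the inner mitochondrial membrane. Complexes I (NADH dehydrogenase) and II (succinate dehydrogenase) pass electrons through ubiquinone to complex III (cytochrome bc1), cytochrome c carries them to complex IV (cytochrome c oxidase), and complex V (ATP synthase) uses the proton gradient to make ATP. Complex II is wholly nuclear-encoded, while the other complexes also hold subunits from mitochondrial DNA. Pluripotent cells draw heavily on glycolysis, and several complex IV subunits have paralogs that are used only in certain tissues or under low oxygen. MLL2, MLL3 and MLL4 methylate lysine 4 of histone H3 at promoters and enhancers.

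Total counts ranged from 19.4 to 46 M per library, and each of the 18 libraries correlated best with its own group. The 37 mitochondrially encoded genes were listed at 0 in all libraries, so the mitochondrially encoded side of the chain is not analysed here. ESC WT replicate 2 stood apart: the members' median log2 deviation from the mean of all libraries was -0.019 there and 0.18 to 0.25 in the other 8 ESC libraries. The 7 ESC markers summed to 3420 to 3928 CPM in ESC WT and 26.9 to 27.7 CPM in NPC WT, none of them at 0. In NPC they summed to 42.9 to 45.3 CPM in dCD and 189 to 192 CPM in MLL2dTAG. Endoderm markers in NPC summed to 203 to 211 CPM in WT, 175 to 183 CPM in dCD and 498 to 510.0 CPM in MLL2dTAG. NPC markers summed to 143 to 153 CPM in ESC WT and 578 to 585 CPM in NPC WT. Sox11 rose from 44.2 to 315 CPM on average there, while Sox1 averaged 3.05 and 3.10 CPM. In dCD the list summed to 180 to 191 CPM in ESC and 688 to 736 CPM in NPC. In MLL2dTAG it summed to 149 to 159 CPM and 585 to 595 CPM. Against WT, 6 were higher and 0 lower of 8 in ESC dCD, and 5 higher and 1 lower of 8 in NPC dCD. For MLL2dTAG the calls were 2 higher and 3 lower in ESC and 3 higher and 4 lower in NPC. Over all genes, 25.7% were called higher and 22.6% lower in ESC dCD, and 26.7% and 26.8% in NPC dCD. For MLL2dTAG the shares were 28.7% and 28.2% in ESC and 33.3% and 28.4% in NPC. The counts of the next list stand beside the same shares. In ESC WT and ESC dCD, 3 of the 8 NPC markers (Pax3, Dcx and Neurog2) averaged below 1 CPM. Mesoderm and mesenchyme markers summed to 442 to 554 CPM (WT), 703 to 786 CPM (dCD) and 772 to 825 CPM (MLL2dTAG) in ESC, and to 634 to 649 CPM, 823 to 913 CPM and 897 to 907 CPM in NPC. Against WT, dCD had 7 higher and 0 lower of 7 tested in ESC and 6 higher and 0 lower of 7 in NPC, and MLL2dTAG had 6 higher and 1 lower of 7 in ESC and 4 higher and 2 lower of 7 in NPC. In NPC MLL2dTAG the collagen gene Col3a1 was higher (mean 716 CPM against 295 CPM in WT), while Col1a1 (99.8 against 156 CPM) and Col1a2 (21.3 against 153 CPM) were lower. The part of other cell types in the results was not tested. In bulk samples, fewer cells of a type and less RNA per cell cannot be told apart.

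In summed CPM, the chain was higher in ESC than in NPC. The summed level of the 93 genes, in CPM (counts scaled to a common library total, with the TMM factor for composition), was 10780 ± 913 for WT ESC (SD, n = 3), 11164 ± 234 for dCD ESC and 10847 ± 294 for MLL2dTAG ESC. In NPC the sums were 7665 ± 47.1 (WT), 7747 ± 121 (dCD) and 7969 ± 95.5 (MLL2dTAG). All 9 ESC libraries lay above all 9 NPC libraries, while the 3 ESC genotypes overlapped. The NPC MLL2dTAG sums (7872 to 8063 CPM) lay above those of NPC WT (7626 to 7717 CPM), but this order depends on the scaling. The TMM factors, by which the library totals are multiplied, were 1.035 to 1.042 in NPC WT and 0.977 to 0.984 in NPC MLL2dTAG. With upper-quartile scaling the members' median log2 change between these groups was -0.0096, against 0.081 with TMM. The 16 genes of complex V summed to 4500 ± 384 CPM in ESC WT and 2954 ± 24.2 CPM in NPC WT. The 36 complex I subunits summed to 2462 ± 217 and 2005 ± 37.3 CPM, and the 20 complex IV genes to 1793 ± 161 and 1222 ± 7.17 CPM.

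**Figure D1:**
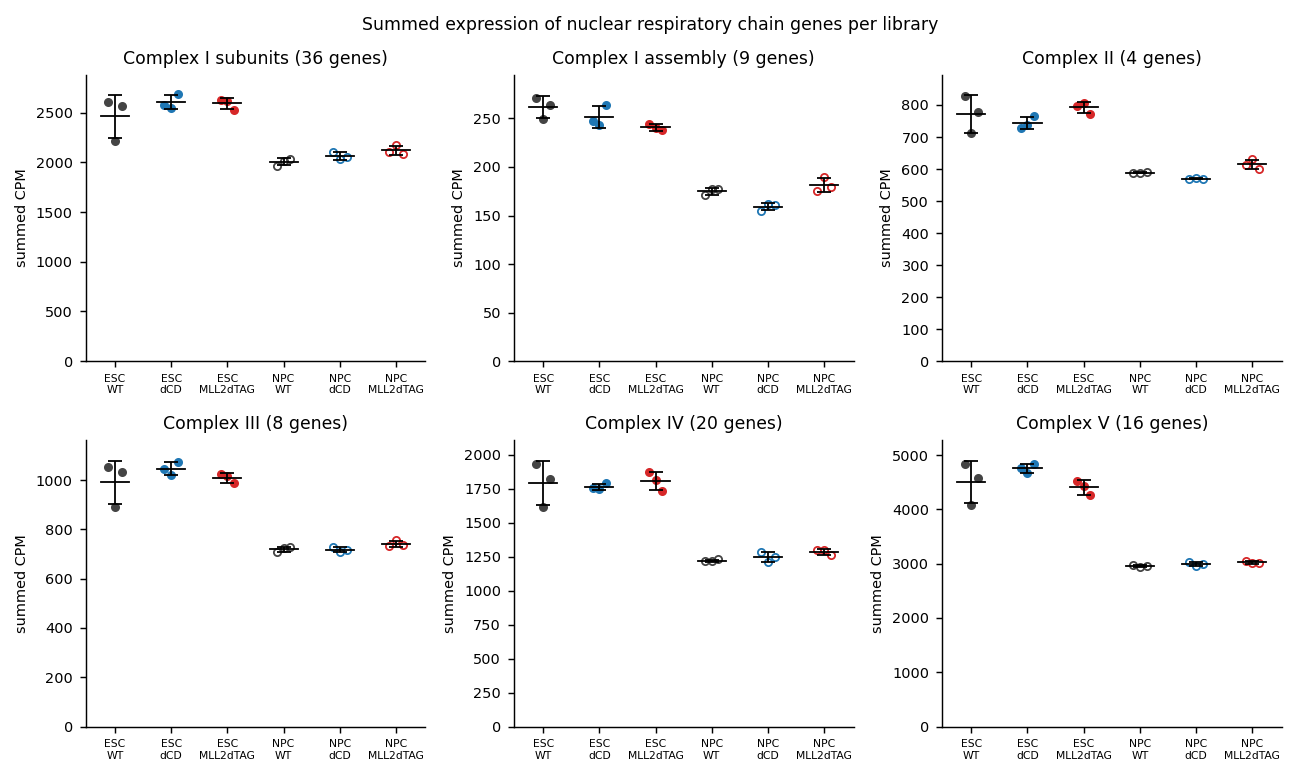
Summed TMM-scaled CPM (y axis, from 0) of the members of each complex in each of the 18 libraries (points; filled for ESC, open for NPC), with the mean and SD of each group of 3 (black). In each of the 6 panels, the ESC points lie above the NPC points of the same genotype.

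Per kilobase of merged exons, the mean over the 18 libraries had a median of 53.7 CPM per kb in complex I, 97.5 in complex II, 117 in complex III, 83.2 in complex IV and 132 in complex V. The assembly factors, which help build complex I but are not part of it, had a median of 14.2 CPM per kb. Atp5b, the catalytic beta subunit of the ATP synthase head, was the highest member at 654 CPM per kb. Cox4i1, the widely used form of subunit 4, led complex IV at 315 CPM per kb, and Uqcrh, the hinge protein, led complex III at 254. The lowest was Cox8b, the muscle form of subunit 8, at 0.0433 CPM per kb.

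The first comparison asked how the chain changed as WT ESC became NPC. Of 91 members tested, 73 were lower in NPC and 4 higher, at an adjusted p under 0.05 in edgeR's quasi-likelihood test. Over all genes 79.5% were called, with 39.1% higher and 40.4% lower. The members' median log2 change was -0.38, against -0.037 for all 20511 genes tested. Transcript length moved with this direction. The members' median exon length was 983 bp against 2849 bp for all tested genes, and short genes as a class were lower in NPC: the median deviation of 697 short genes was 0.039 to 0.20 in ESC libraries and -0.20 to -0.12 in NPC libraries. With offsets for length and GC content, 23 members were higher and 45 lower, with a median of -0.10. With the same offsets 7723 of all 20511 genes were higher and 8569 lower, with a median of -0.066.

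By complex, the calls were 3 higher and 24 lower of 36 for complex I subunits (median -0.24), 0 higher and 4 lower of 4 for complex II (-0.38), 1 higher and 7 lower of 8 for complex III (-0.48), 0 higher and 17 lower of 18 for complex IV (-0.49) and 0 higher and 14 lower of 16 for complex V (-0.40). Of the assembly factors, 7 of 9 were lower and none higher. With the offsets the calls became 12 higher and 14 lower for complex I, 0 and 3 for complex II, 1 and 6 for complex III, 3 and 10 for complex IV, 5 and 7 for complex V, and 2 and 5 for the assembly factors. Lower calls still outnumbered higher ones in each complex, while the medians of complexes I and V moved to 0.016 and 0.029.

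**Figure D2:**
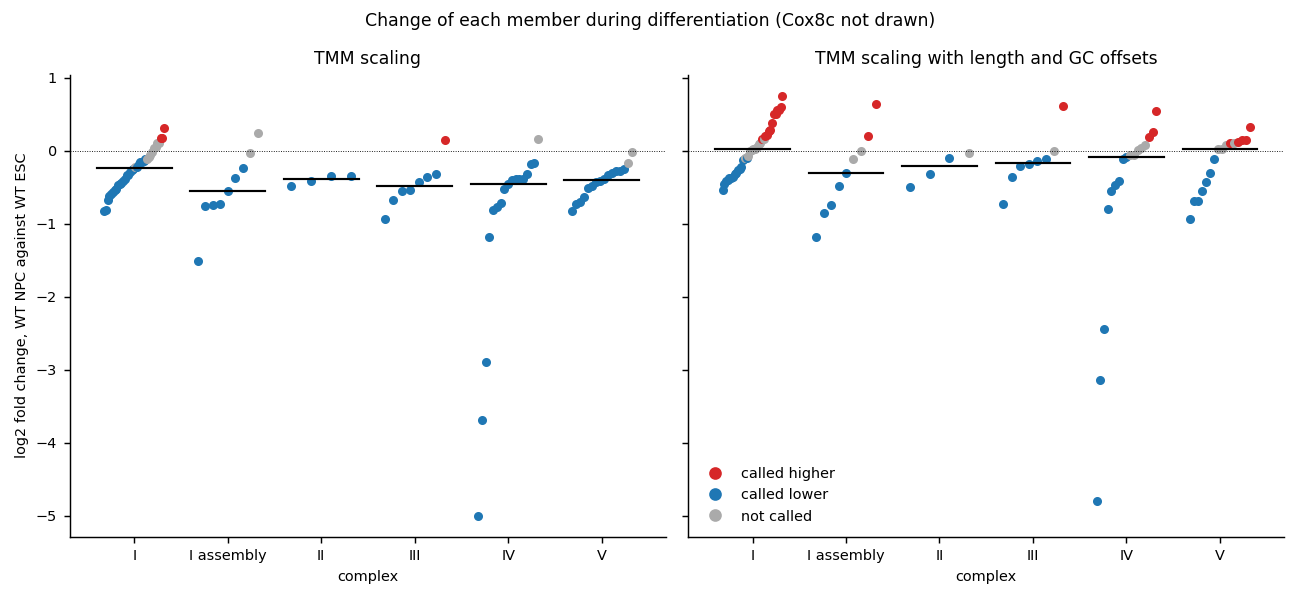
Log2 fold change of each tested member, WT NPC against WT ESC (y axis), by complex (x axis), with TMM scaling alone (left) and with offsets for length and GC content (right); red and blue points were called higher and lower, grey points were not called, black lines are medians, and Cox8c is not drawn. With TMM alone 73 members were lower and 4 higher, and with the offsets 45 and 23.

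The catalytic head of ATP synthase fell in NPC. Atp5b measured 1764, 1424 and 1614 CPM in the 3 ESC WT libraries and 914, 893 and 889 CPM in NPC WT, a log2 change of -0.83 ± 0.042, adjusted p = 1.91e-19 (± standard error, as for all log2 changes below). Its partner in the head, the alpha subunit Atp5a1, measured 1313, 1142 and 1248 CPM and 763, 753 and 747 CPM (-0.71 ± 0.034, adjusted p = 2.70e-20). For both genes the groups did not overlap, and the changes with offsets were -0.69 and -0.69. The 3 genes for subunit c, which forms the rotor ring and is the same mature protein from each gene, changed by -0.64 ± 0.045 (Atp5g1), -0.51 ± 0.058 (Atp5g2) and -0.28 ± 0.043 (Atp5g3). Atp5g3 turned to 0.15 with the offsets, while Atp5g1 went to -0.93, a value that rests on its 4912 bp of merged exons.

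In complex III, the core protein Uqcrc1 fell from 302, 259.5 and 288 CPM in ESC WT to 145, 153 and 148 CPM in NPC WT (log2 -0.93 ± 0.04, adjusted p = 1.44e-21; -0.73 with offsets). The core protein Uqcrc2 and the Rieske iron-sulfur protein Uqcrfs1 fell less, by 0.32 and 0.43 on the log2 scale. Uqcrh was the one member of complex III called higher, at 146, 118 and 140.4 CPM in ESC WT and 150.5, 146 and 149.7 CPM in NPC WT (0.15 ± 0.048, adjusted p = 0.00627). Its call was lost with upper-quartile scaling (0.065, adjusted p = 0.2) and without ESC WT replicate 2 (0.061).

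All 4 genes of complex II were lower in NPC. The flavoprotein Sdha, which oxidises succinate, changed by -0.35 ± 0.034, the iron-sulfur protein Sdhb by -0.35 ± 0.061, and the membrane anchors Sdhc and Sdhd by -0.49 ± 0.05 and -0.41 ± 0.041. With the offsets Sdhb stood at -0.026 and was not called, while Sdha stood at -0.32 and Sdhc at -0.50. In the core of complex I, the flavoprotein Ndufv1, which binds NADH, fell from 140.3, 122 and 139 CPM to 83.2, 88.2 and 89.6 CPM (-0.62 ± 0.042, adjusted p = 1.44e-15). Ndufs1, the largest iron-sulfur subunit, changed by -0.53 ± 0.036, and Ndufv2 by -0.25 ± 0.043. Ndufs3 changed by -0.15 ± 0.05 and turned to 0.20 with the offsets. Ndufs7 and Ndufs8 were not called (0.037 ± 0.076 and -0.08 ± 0.068).

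Among the accessory subunits of complex I, Ndufa7 had the largest fall, from 142, 131 and 150.4 CPM to 75.1, 80.8 and 82.7 CPM (-0.83 ± 0.049, adjusted p = 2.14e-17). Ndufa2 was the member with the largest rise, from 44.1, 38 and 45.6 CPM to 49.3, 52.9 and 55.4 CPM (0.31 ± 0.062, adjusted p = 3.92e-05), with no overlap of the groups. The assembly factor Ndufaf6 went from 26.6, 24.3 and 28.2 CPM to 9.4, 9.96 and 8.27 CPM (-1.52 ± 0.083, adjusted p = 2.04e-18; -1.18 with offsets), the largest fall outside complex IV. In complex IV, Cox5a, named here after its values were seen, fell from 88.1, 75.3 and 82.7 CPM to 37.1, 35.3 and 35.4 CPM (-1.19 ± 0.056, adjusted p = 2.12e-20). A gene on the other strand, Gm26631, overlaps 41.7% of the exons of Cox5a.

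Complex IV has several subunits encoded by paralog pairs, 1 used widely and 1 restricted. The promoters of some of these genes are shown because the pairs moved apart in these data. Sequences are from RefSeq on GRCm38.p6, written 5′ to 3′ on the gene's strand, with matches to the motifs of NRF1 (GCATGCG) and of ETS factors such as GABPA (CCGGAAG), both regulators of respiratory genes, in capitals, read on either strand. The NRF1 motif overlaps its own reverse complement, so 1 site can give 2 matches. Cox6a1 is on the minus strand at chr5:115348968-115349128, Cox6b1 on the minus strand at chr7:30626124-30626284, Cox6b2 on the minus strand at chr7:4753104-4753224, Cox7a2 on the minus strand at chr9:79759863-79760023 and Cox7a1 on the plus strand at chr7:30184001-30184161.
Cox6a1: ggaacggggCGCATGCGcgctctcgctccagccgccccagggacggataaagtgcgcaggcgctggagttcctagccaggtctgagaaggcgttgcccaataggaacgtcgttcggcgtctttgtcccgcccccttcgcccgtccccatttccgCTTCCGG
Cox6b1: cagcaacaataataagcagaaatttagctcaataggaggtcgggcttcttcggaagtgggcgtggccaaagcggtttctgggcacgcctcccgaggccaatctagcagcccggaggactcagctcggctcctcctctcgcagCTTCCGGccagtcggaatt
Cox6b2: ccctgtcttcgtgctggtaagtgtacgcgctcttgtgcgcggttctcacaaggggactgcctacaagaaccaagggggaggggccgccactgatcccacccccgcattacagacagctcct
Cox7a2: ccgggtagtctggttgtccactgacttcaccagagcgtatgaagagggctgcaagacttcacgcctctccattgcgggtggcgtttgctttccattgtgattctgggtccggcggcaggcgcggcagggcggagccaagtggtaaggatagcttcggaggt
Cox7a1: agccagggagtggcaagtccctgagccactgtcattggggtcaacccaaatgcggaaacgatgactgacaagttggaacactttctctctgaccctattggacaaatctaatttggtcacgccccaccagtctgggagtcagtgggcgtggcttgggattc

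Each stretch ends 10 bases before the annotated start. It begins 170 bases before the start, or 130 for Cox6b2. Cox6a1 holds the NRF1 and ETS motifs and Cox6b1 the ETS motif, while Cox6b2, Cox7a1 and Cox7a2 hold neither. Over windows from 250 bases before to 50 bases after the start, 77 members had 83 windows. The NRF1 motif was in 15.7% of them and in 3.58% of all 32851 windows, the ETS motif in 21.7% and 8.86%, and the YY1 motif (AAGATGG) in 16.9% and 6.34%. None of the 4 windows of restricted paralogs held any of the 3 motifs. The other members held them in 16.5% (NRF1), 22.8% (ETS) and 17.7% (YY1) of windows, so 4 windows are too few to show a difference. Cox4i2 and Ndufa4l2 had no window. A match is a description of the letters in the window and not evidence of binding.

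From WT ESC to WT NPC, the 4 lowest fitted log2 changes of all members belonged to restricted paralogs of complex IV: Ndufa4l2, Cox8c, Cox7b2 and Cox7a1. Ndufa4l2, a low-oxygen relative of the complex IV subunit Ndufa4, measured 58.8, 51.7 and 50.6 CPM in ESC WT and 1.8, 1.65 and 1.56 CPM in NPC WT (-5.0 ± 0.11, adjusted p = 6.61e-30). Cox7a1, the heart and skeletal muscle form of subunit 7a, measured 11.3, 8.19 and 11.8 CPM and 0.823, 1.57 and 1.7 CPM (-2.90 ± 0.19, adjusted p = 1.85e-16). Their partners fell less, Ndufa4 by 0.53 and Cox7a2 by 0.40 on the log2 scale. Cox7a2 turned to 0.034 with the offsets, which left Ndufa4l2 at -4.80 and Cox7a1 at -2.44. Per kilobase, Ndufa4l2 made up 18% ± 0.946 (SD, n = 3) of the pair with Ndufa4 in ESC WT and 0.98% ± 0.0931 in NPC WT. Cox7a1 made up 10.1% ± 1.01 of the pair with Cox7a2 in ESC WT and 1.93% ± 0.685 in NPC WT.

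Other paralogs had smaller changes. Cox4i2, the lung and hypoxia form of subunit 4, measured 4.68, 4.54 and 4.52 CPM in ESC WT and 4.94, 4.87 and 5.53 CPM in NPC WT and was not called (0.16 ± 0.15, adjusted p = 0.341), though it was called higher with the offsets (0.54). Its partner Cox4i1 fell (-0.45 ± 0.054). Cox6b2, the testis form of subunit 6b, was well expressed: it made up 28.6% ± 3.88 per kilobase of the pair with Cox6b1 in ESC WT and 26.7% ± 1.28 in NPC WT. The log2 changes of Cox6b2 and Cox6b1, -0.32 ± 0.056 and -0.19 ± 0.052, turned to 0.084 and 0.26 with the offsets. The widely used Cox6a1, Cox7b and Cox8a fell by 0.71, 0.77 and 0.81, and Cox7a2l, which joins complexes III and IV into supercomplexes, by 0.38 on the log2 scale, a call that the offsets ended (-0.057).

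The next comparisons asked how the chain differed in each edited line from WT at the same stage. Both lines are set against the same WT libraries. Outside the restricted paralogs, no called member changed 2-fold or more in any of the 4 comparisons. In ESC dCD, 27 members were higher and 14 lower where 48.3% of all genes were called (25.7% higher and 22.6% lower), with a median of 0.063, but without ESC WT replicate 2 the counts were 18 and 23 and the median -0.0085. In ESC MLL2dTAG, 30 were higher and 18 lower, with 56.9% of all genes called (28.7% higher, 28.2% lower) and a median of 0.039. Without that library the counts were 16 and 28 and the median -0.018, and with upper-quartile scaling 20 and 26. In NPC dCD, 25 were higher and 17 lower, with 53.5% of all genes called (26.7% higher, 26.8% lower) and a median of 0.035. In NPC MLL2dTAG, 39 were higher and 11 lower, with 61.7% of all genes called (33.3% higher, 28.4% lower) and a median of 0.081. With upper-quartile scaling, however, 13 were higher and 21 lower (median -0.0096). That scaling gave 5610 higher and 6928 lower over all genes (median -0.056). In a fit of the compared groups alone the members' counts were 34 and 22. All 7 ESC markers were higher in NPC MLL2dTAG than in NPC WT, and their part in these counts was not tested.

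**Figure D3:**
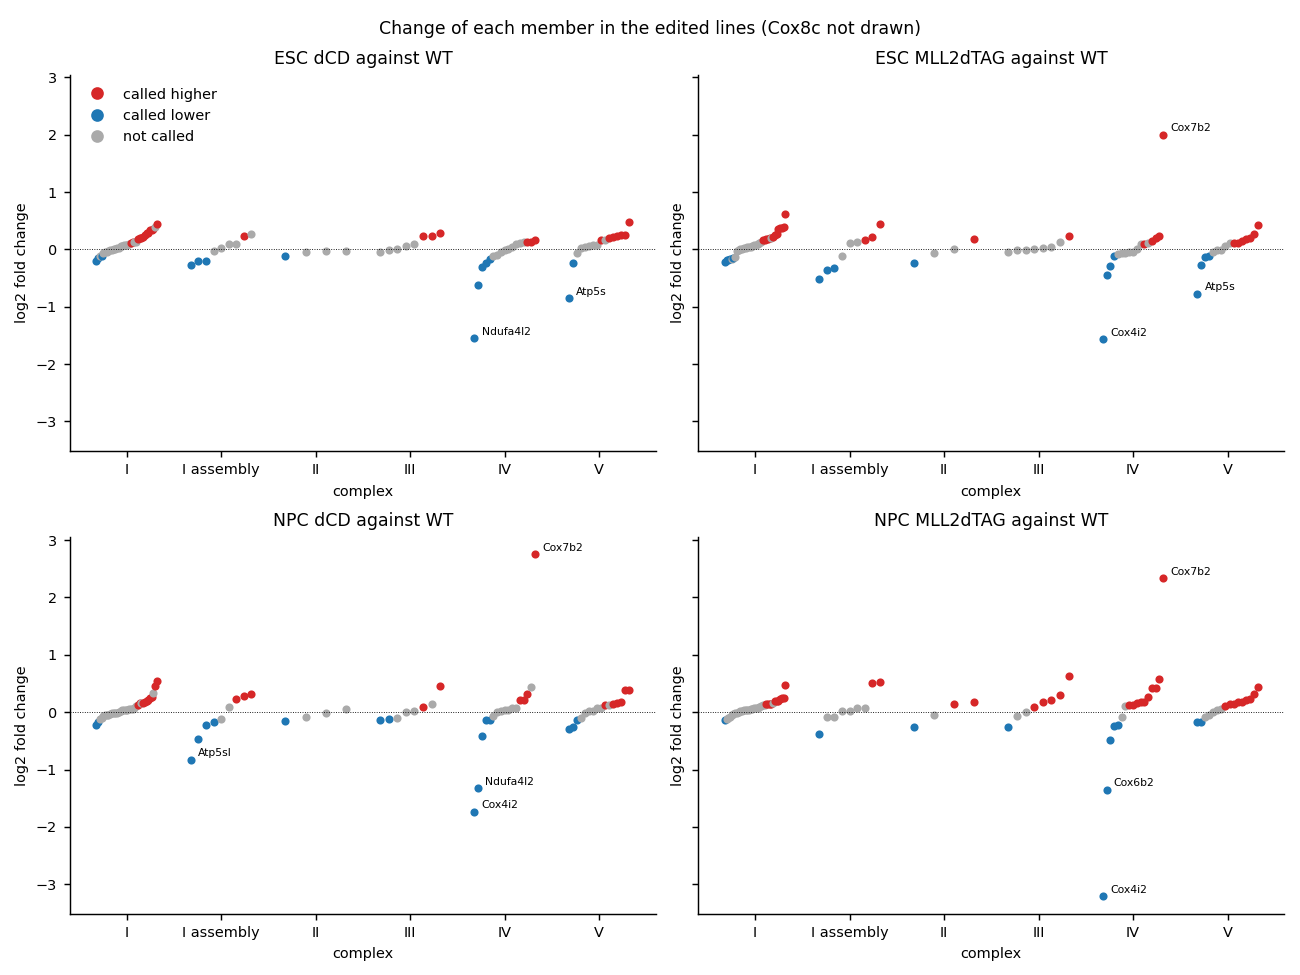
Log2 fold change against WT of the same stage (y axis) of each tested member by complex (x axis), for the dCD (left) and MLL2dTAG (right) lines in ESC (top) and NPC (bottom); red and blue points were called higher and lower, grey points were not called, and Cox8c is not drawn. Most members lie near 0, and the labelled points include Cox4i2 at -3.21 in NPC MLL2dTAG and Ndufa4l2 at -1.55 in ESC dCD.

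Complex I subunits were called 13 higher and 3 lower of 36 in ESC dCD, 13 higher and 5 lower of 36 in ESC MLL2dTAG, 10 higher and 2 lower of 36 in NPC dCD and 11 higher and 1 lower of 36 in NPC MLL2dTAG. Over all genes, 25.7%, 28.7%, 26.7% and 33.3% were called higher in this order, and 22.6%, 28.2%, 26.8% and 28.4% lower. The counts of the other complexes below stand beside the same shares. All counts by complex are from the fit of 18 libraries with TMM scaling, and carry the limits of the counts over all members. Those turned to 18 higher and 23 lower (ESC dCD) and 16 and 28 (ESC MLL2dTAG) without ESC WT replicate 2. In NPC MLL2dTAG they turned to 13 and 21 with upper-quartile scaling. The core subunits gave 3 higher and 1 lower of 7 in ESC dCD and 1 higher and 2 lower of 7 in ESC MLL2dTAG. In NPC they gave 2 higher and 1 lower of 7 in dCD and 1 higher and 1 lower of 7 in MLL2dTAG. Of these, Ndufs1 rose in ESC dCD (0.11 ± 0.036) and in both NPC lines (0.12 ± 0.036 and 0.15 ± 0.036). The dCD calls were lost with offsets for length and GC content (0.026 in ESC and 0.066 in NPC), and that of NPC MLL2dTAG with upper-quartile scaling (0.056). Ndufs3 fell in ESC MLL2dTAG (-0.19 ± 0.05), a call lost with no filter on low counts (-0.13, adjusted p = 0.0701). It was also called lower in ESC dCD (-0.16 to -0.078 over 14 alternative settings, lost in 9). The same held in NPC MLL2dTAG (-0.22 to -0.099, lost in 3). Ndufs8 was called lower in ESC MLL2dTAG (-0.30 to -0.074, lost in 9) and higher in NPC dCD (0.17 to 0.23, lost in 1). Ndufs7 was called lower in NPC dCD (-0.33 to -0.14, lost in 3). Ndufs3 shares 35.8% of its 50-base stretches with other genes. Ndufv1 and Ndufv2 rose in ESC dCD (0.12 ± 0.042 and 0.19 ± 0.043), and Ndufv2 in ESC MLL2dTAG (0.16 ± 0.042). Without ESC WT replicate 2 these 3 ESC values were 0.06, 0.14 and 0.099, and the first was no longer called. It was also lost without ESC dCD replicate 3 (0.11, adjusted p = 0.0623).

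Among accessory subunits, Ndufa11 measured 37.5, 40.7 and 39.9 CPM in NPC WT, 53.9, 50.9 and 56.7 CPM in NPC dCD and 55.2, 56 and 53.6 CPM in NPC MLL2dTAG. Both edited groups lay above all WT libraries (0.45 ± 0.05, adjusted p = 9.98e-10 and 0.48 ± 0.049, adjusted p = 1.18e-10). Ndufa5 rose in ESC dCD from 34.2, 28.2 and 36.4 CPM to 44, 47.7 and 43 CPM (0.45 ± 0.068, adjusted p = 1.09e-06), and without ESC WT replicate 2 its change was 0.34. Ndufa2 rose in all 4 comparisons, by 0.34 and 0.20 in ESC and by 0.21 and 0.25 in NPC. Its ESC values also lean on ESC WT replicate 2, at 38 CPM against 44.1 and 45.6 CPM in the other ESC WT libraries. ESC MLL2dTAG measured 52, 47.2 and 47.4 CPM. Over 14 alternative settings the ESC dCD value was 0.26 to 0.40 and kept its call. Ndufs5 in ESC MLL2dTAG (0.62 ± 0.24) and Ndufb4 in NPC dCD (0.55 ± 0.13) had the largest rises of complex I, but 31.1% and 37% of their 50-base stretches also occur in other genes. The call of Ndufs5 was lost without ESC WT replicate 3 and without ESC MLL2dTAG replicate 2 (0.49 in each).

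The 9 assembly factors of complex I were called 1 higher and 3 lower of 9 in ESC dCD, 3 higher and 3 lower of 9 in ESC MLL2dTAG, 3 higher and 4 lower of 9 in NPC dCD and 2 higher and 1 lower of 9 in NPC MLL2dTAG. Atp5sl (Dmac2), needed to build the distal membrane arm, measured 38.8, 41 and 40.3 CPM in NPC WT, 22.9, 21.7 and 23.1 CPM in NPC dCD and 29.6, 31.1 and 31.2 CPM in NPC MLL2dTAG. The 3 groups did not overlap (-0.83 ± 0.053, adjusted p = 9.30e-16 and -0.39 ± 0.05, adjusted p = 2.73e-08). In ESC it was also lower in both lines (-0.20 ± 0.05 and -0.37 ± 0.049). Ndufaf4 rose in all 4 comparisons, most in NPC MLL2dTAG, where it measured 30.7, 33.8 and 32.1 CPM against 22.1, 22.7 and 22.5 CPM in WT (0.52 ± 0.055, adjusted p = 2.06e-10). Ndufaf6 fell in ESC MLL2dTAG from 26.6, 24.3 and 28.2 CPM to 18, 19 and 18 CPM (-0.52 ± 0.078, adjusted p = 4.25e-07), and in NPC dCD it changed by -0.46 ± 0.095. Ndufaf7 fell in ESC dCD (-0.27 ± 0.064) and in ESC MLL2dTAG (-0.32 ± 0.063), and Ndufaf8 rose in ESC MLL2dTAG (0.44 ± 0.15), a call lost without ESC WT replicate 2 (0.32, adjusted p = 0.0919).

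In complex II, the flavoprotein and the iron-sulfur protein moved apart in the MLL2dTAG line. Sdha measured 269.9, 274 and 275 CPM in NPC WT and 293, 311 and 298 CPM in NPC MLL2dTAG (0.14 ± 0.034, adjusted p = 0.00061), while Sdhb measured 88.2, 88.5 and 91.5 CPM and 74.5, 77.8 and 71.5 CPM (-0.26 ± 0.061, adjusted p = 0.000339). The groups did not overlap for either gene, though the rise of Sdha was not called with upper-quartile scaling (0.048, adjusted p = 0.211). In ESC MLL2dTAG the changes were 0.18 ± 0.034 for Sdha and -0.24 ± 0.061 for Sdhb, where Sdhb overlapped WT through ESC WT replicate 2, and without that library they were 0.16 and -0.36. The anchor Sdhd rose in NPC MLL2dTAG (0.18 ± 0.041, lost with upper-quartile scaling at 0.084) and fell in NPC dCD (-0.16 ± 0.042). Sdhc fell in ESC dCD (-0.12 ± 0.051, adjusted p = 0.0458), with overlapping groups. That call was lost with RLE scaling (-0.11, adjusted p = 0.0849), on leaving out ESC WT replicate 1 or 3 (-0.056 and -0.089), and on leaving out ESC dCD replicate 1, 2 or 3 (-0.10, -0.12 and -0.13). Over the 4 genes of complex II, 1 or 2 were called higher and 1 lower in the MLL2dTAG comparisons, and 1 lower in each dCD comparison.

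Complex III was called 3 higher and 0 lower of 8 in ESC dCD, 1 higher and 0 lower of 8 in ESC MLL2dTAG, 2 higher and 2 lower of 8 in NPC dCD and 5 higher and 1 lower of 8 in NPC MLL2dTAG. Uqcrq, a small subunit, had the largest rises: 31.5, 36.6 and 34.7 CPM in NPC WT, 53.9, 41.4 and 47.1 CPM in NPC dCD and 52.1, 54.8 and 52.2 CPM in NPC MLL2dTAG. The log2 changes were 0.46 ± 0.076, adjusted p = 2.42e-06 in dCD and 0.63 ± 0.074, adjusted p = 3.64e-09 in MLL2dTAG, with no overlap of either group with WT. In ESC they were 0.29 ± 0.076 and 0.24 ± 0.075, and without ESC WT replicate 2 0.19 and 0.14, the last of which was not called. Uqcrh moved the other way in NPC MLL2dTAG, at 122, 128 and 122 CPM against 150.5, 146 and 149.7 CPM in WT (-0.26 ± 0.047, adjusted p = 1.14e-05). Uqcrc1 stayed within 0.046 to 0.097 on the log2 scale in the 4 comparisons, Uqcrc2 within -0.12 to 0.0094 and Uqcrfs1 within -0.14 to 0.0083.

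Complex IV held the largest changes of the edited lines. Its calls were 3 higher and 5 lower of 18 in ESC dCD, 5 higher and 5 lower of 18 in ESC MLL2dTAG, 4 higher and 5 lower of 18 in NPC dCD and 10 higher and 5 lower of 18 in NPC MLL2dTAG. Cox4i2 measured 4.68, 4.54 and 4.52 CPM in ESC WT, 2.82, 3.36 and 2.72 CPM in ESC dCD and 1.47, 1.49 and 1.64 CPM in ESC MLL2dTAG. In NPC it measured 4.94, 4.87 and 5.53 CPM in WT, 1.6, 1.41 and 1.58 CPM in dCD and 0.771, 0.464 and 0.444 CPM in MLL2dTAG. At each stage the order was WT, dCD, MLL2dTAG, and no groups overlapped. The log2 changes against WT were -0.63 ± 0.17, adjusted p = 0.00221 in ESC dCD and -1.57 ± 0.18, adjusted p = 1.80e-09 in ESC MLL2dTAG. In NPC they were -1.74 ± 0.17, adjusted p = 6.43e-11 in dCD and -3.21 ± 0.20, adjusted p = 1.91e-16 in MLL2dTAG. Its partner Cox4i1 was called in ESC dCD (0.13 ± 0.054), with overlapping groups, and in none of the other 3 comparisons. Leaving out ESC WT replicate 2 (0.021) or ESC dCD replicate 3 (0.10) ended that call. Per kilobase, Cox4i2 made up 2.41% ± 0.221 of the pair in NPC WT, and its share was 0.718% ± 0.0475 in the dCD line and 0.284% ± 0.0917 in the MLL2dTAG line.

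Ndufa4l2 was lower in dCD, at 19.8, 19.3 and 16 CPM in ESC against 58.8, 51.7 and 50.6 CPM in WT (-1.55 ± 0.084, adjusted p = 4.91e-17) and at 0.859, 0.331 and 0.821 CPM in NPC against 1.8, 1.65 and 1.56 CPM in WT (-1.33 ± 0.23, adjusted p = 9.20e-06). In MLL2dTAG it measured 45.3, 42.5 and 44.1 CPM in ESC and 1.13, 1.37 and 1.04 CPM in NPC, smaller falls that were also called (-0.28 ± 0.076, adjusted p = 0.00167 and -0.48 ± 0.20, adjusted p = 0.0343). Neither edited group overlapped WT at either stage. The NPC MLL2dTAG call was lost without NPC WT replicate 1 or 2 and without NPC MLL2dTAG replicate 1 or 3 (-0.49 to -0.40). Ndufa4 itself rose in NPC dCD and NPC MLL2dTAG (0.32 ± 0.043 and 0.42 ± 0.043). Cox6b2 fell most in NPC MLL2dTAG, from 50.04, 54.7 and 53 CPM in WT to 21.5, 19.3 and 20.9 CPM (-1.36 ± 0.061, adjusted p = 2.69e-20), with NPC dCD between them at 39.1, 39.1 and 40.5 CPM (-0.41 ± 0.057). Its share per kilobase of the pair with Cox6b1 was 11.6% ± 0.854 in NPC MLL2dTAG. In ESC it fell in dCD (-0.30 ± 0.058) and was not called in MLL2dTAG (0.004 ± 0.056).

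**Figure D4:**
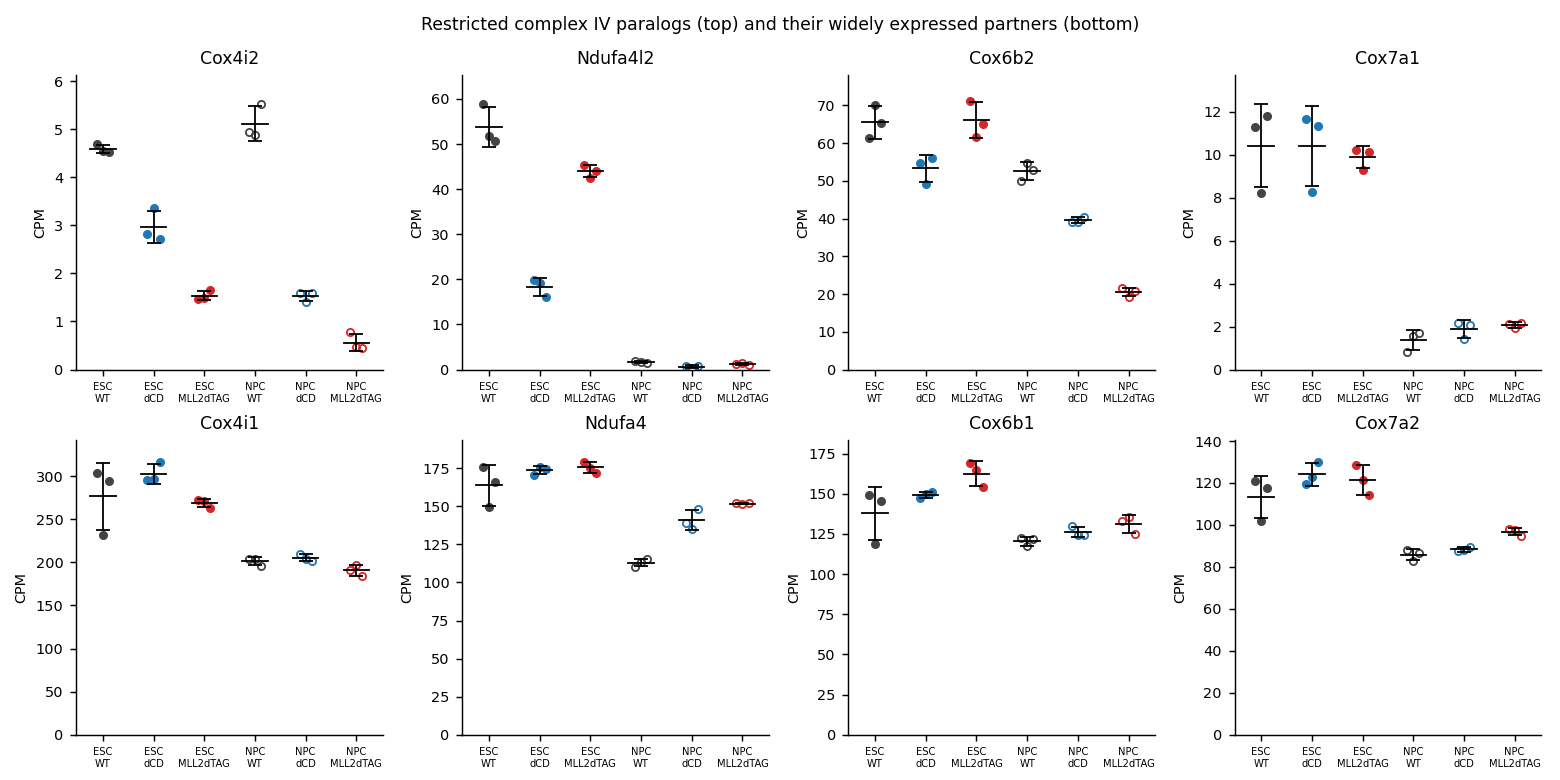
TMM-scaled CPM (y axes, from 0) of 4 restricted complex IV paralogs (top) and their widely used partners (bottom) in each library (points; filled for ESC, open for NPC), with the mean and SD of each group of 3 (black). Cox4i2 falls from WT to dCD to MLL2dTAG at both stages, and Ndufa4l2 lies between 0.331 and 1.80 CPM in the NPC libraries.

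Cox7a1 stood at 2.14, 1.92 and 2.17 CPM in NPC MLL2dTAG against 0.823, 1.57 and 1.7 CPM in WT (0.58 ± 0.22, adjusted p = 0.0229), a call lost with upper-quartile scaling (0.485, adjusted p = 0.0537), without NPC WT replicate 1 (0.34) and without NPC MLL2dTAG replicate 1 or 3 (0.56 and 0.54). It was not called in the other 3 comparisons. The widely used Cox6a1 rose in NPC dCD (0.21 ± 0.049), NPC MLL2dTAG (0.43 ± 0.048) and ESC MLL2dTAG (0.20 ± 0.048), and Cox8a in NPC MLL2dTAG (0.27 ± 0.055). Cox6b1 rose in ESC MLL2dTAG (0.24 ± 0.052), and Cox7b in NPC MLL2dTAG (0.16 ± 0.048, lost with upper-quartile scaling at 0.072). Cox7a2l fell in ESC dCD from 98.4, 83.4 and 90.1 CPM to 75.3, 76.7 and 78.4 CPM (-0.23 ± 0.048), in ESC MLL2dTAG to 68.7, 64.1 and 65 CPM (-0.45 ± 0.048, adjusted p = 2.98e-10) and in NPC MLL2dTAG (-0.22 ± 0.047).

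A further 4 restricted paralogs had few counts, and are given as counts summed over the 3 libraries of a group, with intervals (exact, 95%) that cover counting error only. Cox7b2, the testis form of subunit 7b, had 62 (WT), 63 (dCD) and 309 (MLL2dTAG) counts in ESC, and 6, 42 and 36 in NPC. Scaled to total counts, the ratio to WT was 4.01 (3.04 to 5.35) in ESC MLL2dTAG, 7.14 (3.02 to 20.5) in NPC dCD and 5.07 (2.12 to 14.7) in NPC MLL2dTAG, and all 3 rises were called (adjusted p = 3.67e-06, 0.00043 and 0.00272). Cox8c, the testis form of subunit 8, had 52 (WT), 36 (dCD) and 0 (MLL2dTAG) counts in ESC. Set at a floor of 3 counts over the group, it was at least 21.6-fold lower in MLL2dTAG than in WT (adjusted p = 3.38e-06). In NPC it had 2, 4 and 0 counts. From ESC WT to NPC WT, the ratio was 0.0304 (0.00359 to 0.115) for Cox8c and 0.0765 (0.027 to 0.176) for Cox7b2. Cox6a2, the muscle form of subunit 6a, did not pass the filter on low counts: it had 0 counts in ESC WT and NPC WT, 0 in ESC dCD, 1 in NPC dCD, 10 in ESC MLL2dTAG and 24 in NPC MLL2dTAG, at least 6.76-fold higher than NPC WT by the same floor. Cox8b, also not tested, had at most 4 counts in any group.

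In complex V, the genes for subunit c moved in opposite directions. Atp5g1 measured 78, 69.7 and 75.3 CPM in ESC WT, 103, 101 and 106 CPM in ESC dCD and 99.7, 97.6 and 102 CPM in ESC MLL2dTAG. In NPC it measured 47.3, 47.2 and 48.5 CPM in WT, 61.6, 59.6 and 66.1 CPM in dCD and 64.6, 65.7 and 64.1 CPM in MLL2dTAG. The edited libraries lay above all WT libraries at both stages, with log2 changes of 0.48 ± 0.044 and 0.43 ± 0.043 in ESC and 0.39 ± 0.045 and 0.44 ± 0.044 in NPC (adjusted p = 3.60e-11, 1.57e-10, 2.85e-09 and 7.72e-11). Atp5g2 fell in all 4, by 0.23 and 0.28 in ESC and 0.29 and 0.18 in NPC on the log2 scale, and no edited group overlapped WT. Atp5g1 made up 17% ± 0.702 per kilobase of the pair with Atp5g2 in WT ESC, against 25% ± 0.224 (dCD) and 24.9% ± 1.02 (MLL2dTAG) in the edited ESC. In NPC the shares were 15.8% ± 0.186 (WT), 23.1% ± 1.33 (dCD) and 22.4% ± 0.621 (MLL2dTAG). These shares rest on merged exons of 4912 bp for Atp5g1 and 731 bp for Atp5g2, and which transcripts were present was not tested. In unscaled counts Atp5g1 was the larger of the pair, at 5783 against 4203 in ESC WT. Atp5g3 had more counts than either, at 14161 in ESC WT. Per kilobase, Atp5g1 made up 5.72% (WT), 6.67% (dCD) and 7.01% (MLL2dTAG) of the pair with Atp5g3 in ESC. In NPC these shares were 4.51%, 5.33% and 5.60%. Atp5g3 rose in all 4 (0.24 ± 0.043, 0.11 ± 0.043, 0.14 ± 0.042 and 0.11 ± 0.042), and in the MLL2dTAG line neither rise was called with upper-quartile scaling (0.054 and 0.023). The ESC call was also lost without ESC WT replicate 2 (0.052) and without ESC MLL2dTAG replicate 1 or 3 (0.098 and 0.11), and the NPC call without NPC WT replicate 1 (0.091) and without NPC MLL2dTAG replicate 2 (0.10).

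The head subunits moved little: Atp5b was not called in any of the 4 comparisons (0.061 ± 0.042, -0.052 ± 0.042, -0.015 ± 0.042 and 0.033 ± 0.042), and Atp5a1 was lower in ESC MLL2dTAG (-0.13 ± 0.033), with overlapping groups, a call lost with no filter on low counts (-0.065). Atp5s, also named Dmac2l and counted here with complex V as a coupling factor, had the largest fall of that group in the edited lines. It measured 21.9, 26.2 and 21.3 CPM in ESC WT, 12.8, 13 and 12.7 CPM in ESC dCD and 13.2, 14 and 13.4 CPM in ESC MLL2dTAG (-0.85 ± 0.091, adjusted p = 8.24e-10 and -0.78 ± 0.087, adjusted p = 1.39e-09). ESC WT replicate 2 was its highest library, and without it the changes were -0.75 and -0.67. In NPC it was lower in dCD (-0.26 ± 0.09, adjusted p = 0.0149), where the groups overlapped, and not called in MLL2dTAG (0.011 ± 0.087). Over complex V, the calls were 7 higher and 2 lower of 16, 7 higher and 4 lower of 16, 6 higher and 3 lower of 16 and 9 higher and 2 lower of 16, in the order ESC dCD, ESC MLL2dTAG, NPC dCD, NPC MLL2dTAG.

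Whether a line's effect differed between the stages was tested as an interaction, the change in NPC minus the change in ESC. For dCD 10 members were higher and 13 lower, with 42.9% of all genes called (20% higher, 22.9% lower), and for MLL2dTAG 21 were higher and 8 lower, with 49% of all genes called (26.4% higher, 22.6% lower). Without ESC WT replicate 2 the counts were 18 and 10 for dCD and 35 and 7 for MLL2dTAG. Without ESC WT replicate 1 they were 6 and 25 for dCD and 16 and 13 for MLL2dTAG, and without ESC WT replicate 3 those of MLL2dTAG were 18 and 13. Those of dCD were 6 and 14 without ESC dCD replicate 2 and 6 and 15 without NPC dCD replicate 1. For MLL2dTAG they were 11 and 23 with no filter on low counts and 22 and 19 with offsets for length and GC content. Cox4i2 fell further in NPC than in ESC in both lines (-1.11 ± 0.24, adjusted p = 0.000258 for dCD and -1.64 ± 0.28, adjusted p = 5.45e-06 for MLL2dTAG), and both values were the same to 2 decimals without ESC WT replicate 2. The fall of Cox6b2 in MLL2dTAG was larger in NPC (-1.36 ± 0.083, adjusted p = 4.46e-16), and that of Atp5s was smaller (0.60 ± 0.13, adjusted p = 0.00022 for dCD and 0.79 ± 0.12, adjusted p = 1.45e-06 for MLL2dTAG). The rise of Uqcrq in MLL2dTAG was larger in NPC (0.39 ± 0.11, adjusted p = 0.00229). For Ndufa4l2 the interaction was not called in either line (0.22 ± 0.27 and -0.20 ± 0.21).

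The edited lines were also compared with each other. In ESC, 11 members were higher and 14 lower in MLL2dTAG than in dCD, with 47.2% of all genes called (23.4% higher, 23.7% lower), and with upper-quartile scaling 8 were higher and 26 lower. With offsets for length and GC content the ESC counts turned to 26 higher and 16 lower, with no filter on low counts to 16 and 11, and in a fit of the compared groups alone they were 13 and 25. In NPC, 26 were higher and 8 lower, with 55.9% of all genes called (31.6% higher, 24.3% lower), and with upper-quartile scaling the counts were 13 and 19. With offsets they were 26 and 20, with no filter 15 and 15, and in a fit of the compared groups alone 17 and 19. Cox4i2 was lower in MLL2dTAG at both stages (-0.94 ± 0.19, adjusted p = 7.38e-05 in ESC and -1.47 ± 0.23, adjusted p = 9.60e-07 in NPC). Ndufa4l2 was higher in MLL2dTAG at both (1.26 ± 0.084, adjusted p = 4.59e-15 and 0.85 ± 0.25, adjusted p = 0.00379), though leaving out NPC dCD replicate 2 ended the NPC call (0.50, adjusted p = 0.0818). Cox6b2 was higher in ESC and lower in NPC (0.30 ± 0.057 and -0.95 ± 0.062). Sdhb was lower in MLL2dTAG in both (-0.21 ± 0.061 and -0.32 ± 0.061), and in NPC Sdhd (0.34 ± 0.041) and Atp5sl (0.44 ± 0.053) were higher. The accessory complex I subunit Ndufb9 measured 77.8, 77.1 and 83.4 CPM in ESC dCD and 101, 93.3 and 91.6 CPM in ESC MLL2dTAG (0.26 ± 0.064, adjusted p = 0.00102), and Gm49356 holds 23.4% of its 50-base stretches. Uqcrh (-0.28 ± 0.048) and Atp5f1 (-0.18 ± 0.038) were lower there, the latter at 0.012 with offsets. The small complex III subunit Uqcr10 measured 50.1, 45.8 and 50.1 CPM in NPC dCD and 56.3, 60.1 and 54 CPM in NPC MLL2dTAG (0.23 ± 0.063, adjusted p = 0.00243), a call lost with offsets (0.077, adjusted p = 0.177). In NPC Ndufaf6 was higher in MLL2dTAG (0.38 ± 0.094) and Ndufb4 lower (-0.39 ± 0.12), the latter not called without NPC dCD replicate 2 (-0.31, adjusted p = 0.0574).

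Cox4i2 and Ndufa4l2 are known targets of the low-oxygen response, and a list of 8 other such genes was read beside them. Called counts were 0 higher and 5 lower of 8 in ESC dCD (median -0.27), 2 higher and 3 lower of 8 in ESC MLL2dTAG (-0.055), 0 higher and 7 lower of 8 in NPC dCD (-0.79) and 1 higher and 7 lower of 8 in NPC MLL2dTAG (-1.23). Over all genes, 25.7%, 28.7%, 26.7% and 33.3% were called higher in this order, and 22.6%, 28.2%, 26.8% and 28.4% lower. The summed level of the 8 genes was 933 to 967 CPM in NPC WT, 549.6 to 569 CPM in NPC dCD and 477 to 486 CPM in NPC MLL2dTAG, without overlap. Slc2a1, the glucose transporter, fell in both NPC lines (-1.06 ± 0.034 and -1.21 ± 0.034) and was not called in ESC (-0.035 ± 0.033 and -0.013 ± 0.033). Ankrd37 fell in MLL2dTAG at both stages (-3.79 ± 0.17 and -3.78 ± 0.19). Pdk1, which holds pyruvate back from the mitochondrion, rose in ESC MLL2dTAG (0.41 ± 0.033) and fell in NPC MLL2dTAG (-1.89 ± 0.036). In WT NPC against WT ESC, 1 of the 8 was higher and 6 lower, where 39.1% of all genes were called higher and 40.4% lower.

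**Figure D5:**
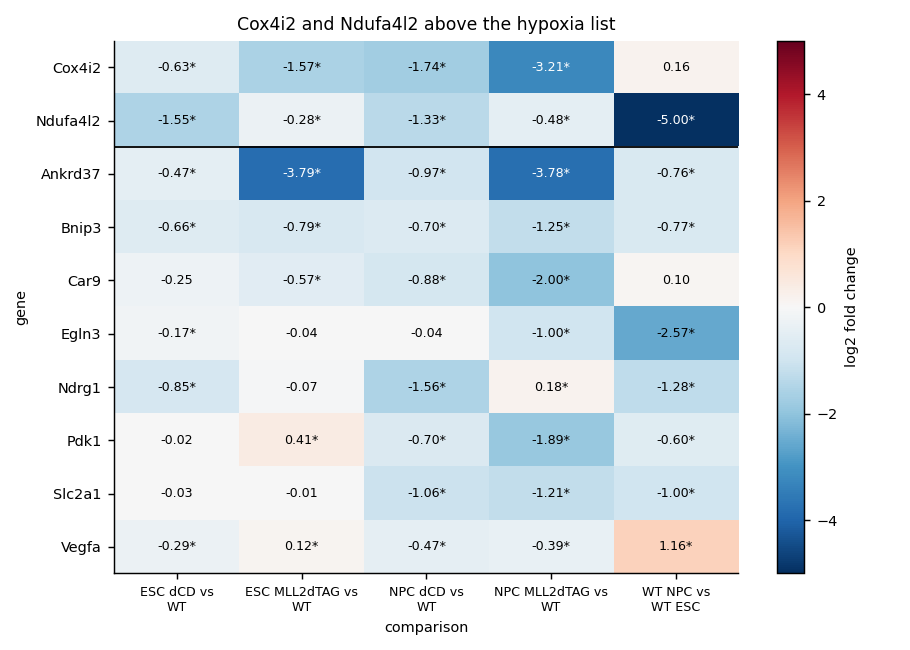
Log2 fold change (colour and printed value) of Cox4i2 and Ndufa4l2 (above the line) and of 8 other hypoxia targets (below) in 5 comparisons (columns), with an asterisk where the adjusted p was under 0.05. In NPC MLL2dTAG, Cox4i2, Ndufa4l2 and 7 of the 8 listed genes were lower.

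Genes that serve the chain from outside the complexes were also read. Cycs, the cytochrome c of body cells, averaged 53.3 ± 4.05 CPM (SD, n = 3) in ESC WT and 25.6 ± 1.29 CPM in NPC WT (-1.05 ± 0.057, adjusted p = 1.82e-18), and it rose in NPC dCD (0.46 ± 0.058) and NPC MLL2dTAG (0.54 ± 0.057). Cyct, the testis form, averaged 3.67 ± 0.365 CPM in ESC WT and 0.0866 ± 0.0751 CPM in NPC WT and fell in ESC MLL2dTAG (-1.05 ± 0.24, adjusted p = 0.000386). Assembly factors outside the rule were called 11 higher and 18 lower of 36 in WT NPC against WT ESC (median -0.12), 13 higher and 6 lower of 36 in ESC dCD, 18 higher and 3 lower of 36 in ESC MLL2dTAG, 15 higher and 3 lower of 36 in NPC dCD and 21 higher and 7 lower of 36 in NPC MLL2dTAG, with medians of 0.084, 0.19, 0.12 and 0.25 in the 4 line comparisons. The 16 regulators of nuclear and mitochondrial transcription gave 4 higher and 7 lower of 16 in WT NPC against WT ESC (median -0.17), 5 higher and 3 lower of 16 in ESC dCD (0.03), 5 higher and 4 lower of 16 in ESC MLL2dTAG (0.035), 3 higher and 9 lower of 16 in NPC dCD (-0.15) and 5 higher and 6 lower of 16 in NPC MLL2dTAG (-0.023). Over all genes, 39.1%, 25.7%, 28.7%, 26.7% and 33.3% were called higher in this order, and 40.4%, 22.6%, 28.2%, 26.8% and 28.4% lower.

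Among the regulators, named here after their values were seen, several factors that act on nuclear or mitochondrial promoters were called. Nrf1 changed by -0.21 ± 0.043 in WT NPC against WT ESC, rose in both ESC lines (0.23 ± 0.043 and 0.21 ± 0.042) and in NPC MLL2dTAG (0.16 ± 0.042), and was not called in NPC dCD (-0.075 ± 0.042). Gabpa, an ETS factor, fell in NPC (-0.78 ± 0.036) and in NPC dCD (-0.27 ± 0.036). Its exons overlap those of Atp5j on the other strand. Tfam, which packs and transcribes mitochondrial DNA, fell in NPC dCD (-0.37 ± 0.045) and rose in ESC MLL2dTAG and NPC MLL2dTAG (0.31 ± 0.044 and 0.27 ± 0.044). Pprc1, a coactivator, fell from 302 ± 23.1 CPM in ESC WT to 88.5 ± 0.837 CPM in NPC WT (-1.77 ± 0.04, adjusted p = 6.04e-30) and rose in NPC MLL2dTAG (0.77 ± 0.04). Other regulators averaged more in NPC WT than in ESC WT. Among them were Ppargc1a (4.25 against 0.0803 CPM), Yy1 (167 against 129 CPM) and Twnk (72.7 against 52.4 CPM). Of the 16 regulators, 4 were called higher and 7 lower in WT NPC against WT ESC.

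Reads of some members cannot be assigned with certainty. More than 20% of 50-base stretches also occur in other genes, mostly pseudogenes, for Ndufa12, Ndufb4, Ndufb9, Ndufs3, Ndufs5, Uqcrb, Cox5b, Cox7c, Atp5f1, Atp5h and Atp5l, with the highest share in Atp5l at 68.5%. The kit marks strand, but the strand setting of the counting is not given, so reads of members that overlap genes on the other strand may be shared, as for Ndufa13, Ndufb6, Uqcrc2, Cox5a, Atp5f1 and Atp5l, where the overlap was over 20% of the exons. Cox4i2, Cox6b2, Cox7a1, Atp5g3, Atp5s, Atp5sl and Sdhb have no such overlap, and 3.43% of the exons of Ndufa4l2 overlap Shmt2.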

How the data were processed

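The authors deposited 1 table of RNA-seq read counts per gene, raw whole-number counts by symbol. The kit was TruSeq Stranded mRNA, per the labels' protocols, and the submitters' processing notes name HTSeq. The aligner, the genome build and the strand setting of the counting are not given in the sources used here. Of the 36 samples of the series, 18 RNA-seq libraries were used and 18 were not, and 6 further columns of the table were not used.

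Counts were analysed with edgeR 4.0.16 in R 4.3.3 (limma 3.58.1): TMM scaling, filterByExpr by group, 1 fit of 6 group means over 18 libraries with 12 residual degrees of freedom, the quasi-likelihood F test, and Benjamini-Hochberg adjustment over 20511 genes, called at an adjusted p under 0.05. The standard error is the log2 change divided by the square root of F. The fit was tested on simulated data. The alternatives were RLE and upper-quartile scaling, no filter on low counts, DESeq2 1.42.0, a fit of the compared groups alone, halved counts, offsets for length and GC content (known for 97.2% of tested genes, from the GENCODE M21 annotation), a replicate block, and leaving out each library in turn. At the depths of 19.4 to 46 M counts, 3 counts stood for 0.0652 to 0.154 CPM. Intervals of count ratios are exact binomial ones (scipy 1.17.1 in Python 3.11.15, figures with matplotlib 3.10.9).

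Genes named with values were the iron-sulfur and flavoprotein core of complex I, complex II, the complex III core, the head of ATP synthase and the paralog sets. The values of 1 gene of this set are not reported here. To these were added, per comparison, the 3 highest and 3 lowest called members, and per complex the largest called change. These were taken among members at 1 CPM or more whose groups did not overlap. For interactions, line and WT had to be without overlap in at least 1 stage. The members and lists were chosen with earlier results of these data known.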

Additional observations from a re-analysis of the deposited data

Results flagged for a closer look

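The effect of an edited line differed between ESC and NPC, by the interaction term of edgeR's quasi-likelihood test, for the members below. They are the 3 highest and 3 lowest called differences of each line. Only members at a mean of 1 CPM or more were taken, with no overlap of line and WT in at least 1 stage. Values are the log2 change against WT in NPC minus that in ESC. In dCD the difference was positive for Atp5s (-0.85 in ESC, -0.26 in NPC, difference 0.597, adjusted p = 0.00022), Cox6a1 (-0.10 in ESC, 0.21 in NPC, difference 0.312, adjusted p = 0.000325) and Ndufa1 (0.0038 in ESC, 0.26 in NPC, difference 0.255, adjusted p = 0.0236). It was negative for Uqcrh (0.23 in ESC, -0.11 in NPC, difference -0.341, adjusted p = 8.12e-05), Atp5sl (-0.20 in ESC, -0.83 in NPC, difference -0.627, adjusted p = 5.96e-09) and Cox4i2 (-0.63 in ESC, -1.74 in NPC, difference -1.11, adjusted p = 0.000258). In MLL2dTAG the difference was positive for Atp5s (-0.78 in ESC, 0.011 in NPC, difference 0.79, adjusted p = 1.45e-06), Cox7a1 (-0.071 in ESC, 0.58 in NPC, difference 0.647, adjusted p = 0.0405) and Ndufaf6 (-0.52 in ESC, -0.083 in NPC, difference 0.44, adjusted p = 0.00215). It was negative for Ndufa10 (0.36 in ESC, 0.037 in NPC, difference -0.328, adjusted p = 8.05e-05), Cox6b2 (0.004 in ESC, -1.36 in NPC, difference -1.36, adjusted p = 4.46e-16) and Cox4i2 (-1.57 in ESC, -3.21 in NPC, difference -1.64, adjusted p = 5.45e-06). The difference of Cox7a1 was not called with upper-quartile scaling (0.61, adjusted p = 0.0528) or with no filter on low counts (0.55, adjusted p = 0.0601). It was also lost without ESC WT replicate 1 or 3, ESC MLL2dTAG replicate 2, NPC WT replicate 1 or NPC MLL2dTAG replicate 1 or 3 (0.40 to 0.63), and that of Ndufa1 without ESC WT replicate 1, ESC dCD replicate 2, NPC WT replicate 1 or NPC dCD replicate 1 (0.19 to 0.24).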

How the results depend on the processing

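Of the 186 results on single genes, 177 kept their direction and call with DESeq2, 181 with RLE scaling, 185 with halved counts, 165 with upper-quartile scaling, 162 with no filter on low counts and 168 with offsets for length and GC content. The offsets reversed 7: for WT NPC against WT ESC Ndufs3 went to 0.20, Atp5g3 to 0.15, Cox6b1 to 0.26, Cox6b2 to 0.084 and Cox7a2 to 0.034. Between the edited lines, Atp5f1 went to 0.012 in ESC and Cox7a2 to -0.0083 in NPC. No scaling moved the median of all genes by more than 0.1, a limit above the members' medians in the comparisons of lines with WT. With upper-quartile scaling the median of all genes in NPC MLL2dTAG against WT went from 0.028 to -0.056. That of the members went from 0.081 to -0.0096. The cause of the changes below was not tested.

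With upper-quartile scaling, NPC MLL2dTAG against WT had 13 members higher and 21 lower (median -0.0096), WT NPC against WT ESC 1 higher, ESC MLL2dTAG against dCD 26 lower (median -0.087) and NPC MLL2dTAG against dCD 13 higher and 19 lower (median -0.031). With no filter, the median of NPC MLL2dTAG against WT was 0.042, WT NPC against WT ESC had 9 higher (median -0.28), the MLL2dTAG interaction 11 higher and 23 lower (median -0.063), ESC MLL2dTAG against dCD a median of 0.0026 and NPC MLL2dTAG against dCD 15 higher and 15 lower (median -0.0067). In fits of the compared groups alone, NPC MLL2dTAG against WT had 22 lower (median 0.031), ESC MLL2dTAG against dCD 25 lower and NPC MLL2dTAG against dCD 17 higher and 19 lower (median -0.0042). With the offsets, the median of NPC MLL2dTAG against WT was 0.055, WT NPC against WT ESC had 23 higher and 45 lower (median -0.10), the MLL2dTAG interaction 19 lower, ESC MLL2dTAG against dCD 26 higher (median 0.043) and NPC MLL2dTAG against dCD 20 lower.

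Leaving out 1 library at a time gave 9 to 23 lower in ESC dCD (lowest without ESC dCD replicate 2, highest without ESC WT replicate 2), and 16 to 37 higher and 14 to 28 lower in ESC MLL2dTAG. It gave 11 to 15 lower in NPC dCD (11 without NPC WT replicate 3) and a median of 0.069 to 0.10 in NPC MLL2dTAG (highest without NPC WT replicate 3, and 0.10 without NPC MLL2dTAG replicate 3). WT NPC against WT ESC had 1 to 7 higher (1 without ESC WT replicate 2, 7 without ESC WT replicate 3). The dCD interaction had 6 to 18 higher, 9 to 25 lower and a median of -0.079 to 0.036. ESC WT replicate 2 gave the 18 and the 0.036, ESC WT replicate 1 the 25, and ESC WT replicate 1, ESC dCD replicate 2 and NPC dCD replicate 1 each 6. The MLL2dTAG interaction had 16 to 35 higher and 7 to 13 lower (35 without ESC WT replicate 2, 13 without ESC WT replicate 1 or 3).

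Replicate numbers did not pair the libraries: over 45 same-number pairs the correlation of deviations had a median of -0.0065 (-0.076 to 0.0469), and 4 of 18 libraries were closest to their own number. With a replicate block, WT NPC against WT ESC had 4 members higher and 74 lower and NPC MLL2dTAG against WT 39 and 12. With it 184 of the single-gene results kept their call and 2 lost it.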
